A study of Mus musculus with 16 samples.

Results

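Chemokines are small secreted proteins that steer the movement of leukocytes and of some neural cells, and they act through G protein-coupled receptors on the cells they attract. The genes described here are the 27 chemokine ligands, 15 chemokine receptors and 5 atypical receptors, 47 of the 46078 genes in the count table. They were taken by symbol: protein-coding genes named Ccl, Cxcl, Ccr or Cxcr with a number, together with Cx3cl1, Cx3cr1, Xcr1, Ccrl2 and Ackr1 to Ackr4, that had more than 10 reads summed over the 16 libraries. Another 20 protein-coding genes with such symbols had 10 reads or fewer, and 13 of those had none.

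Poly(A) RNA was sequenced from demyelinated spinal cord of C57BL/6 mice aged 8-12 weeks. Every animal, controls included, received lysolecithin, a lipid that dissolves myelin and leaves a focal lesion, and the lesion was cut from frozen cord by laser microdissection. The groups were mice with a free running wheel (exercise) and mice with a locked wheel (control), each with 4 libraries at day 10 and 4 at day 5. The libraries are named by the labels' numbers: exercise 13, 17, 18 and 19 and control 2, 3, 4 and 5 at day 10, and exercise 1, 2, 7 and 12 and control 1, 2, 5 and 6 at day 5. How the edge of a lesion was drawn is not given in the sources used here, and the RNA was amplified before library preparation, per the labels' protocols. The labels do not tie each library to an animal of its own, so p-values measure the spread between libraries, which may be partly technical.

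Libraries held 9.77 to 11.09 M counts in day 10 exercise, 10.71 to 12.7 M in day 10 control, 8.13 to 10.93 M in day 5 exercise and 11.2 to 13.93 M in day 5 control. Levels are given as CPM (counts per 1e6 counts of the library) after scaling for library composition, and 35 of the 47 genes had enough counts to be tested among 15096 genes. Oligodendrocyte, astrocyte and microglial markers of spinal cord were abundant in all 16 libraries, while 8 lymphocyte markers together reached only 0.390 to 2.03 CPM in day 10 exercise, 1.73 to 6.39 CPM in day 10 control, 0.380 to 1.81 CPM in day 5 exercise and 0.333 to 2.39 CPM in day 5 control lesions. Day 10 exercise library 17 stood apart, with the highest microglial marker sum (14341 CPM against 6336 to 10182 CPM in the other libraries) and an oligodendrocyte marker sum of 12041 CPM against 15673 to 27582 CPM in the other day 10 libraries. At day 5 the share of counts on mt-Rnr2, a mitochondrial rRNA gene, was 10.91% to 12.94% in exercise libraries and 8.05% to 10.28% in control libraries, without overlap.

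Inflammatory chemokines are made on demand by activated microglia, macrophages, astrocytes and endothelium, whereas homeostatic ones such as Cxcl12 are made constantly by stromal and vascular cells. After a demyelinating injury, CCR2 is known for bringing monocytes from blood into the lesion, fractalkine and its receptor CX3CR1 for signals between neurons and microglia that affect the clearing of myelin debris, and CXCL12 with CXCR4 for guiding oligodendrocyte progenitors. Atypical receptors bind chemokines without the usual G protein signal and take them up or carry them across endothelium.

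A small part of the repertoire supplied most of the reads. Ccl6 held 23.9%, Cx3cr1 23.8% and Ccl9 8.44% of all reads of the 47 genes. Per kb of exon, Ccl6, a macrophage CC chemokine of mice, was the highest at a mean of 136 CPM per kb over the groups. Cx3cr1, the fractalkine receptor, followed at 64.4 CPM per kb. Ccl9 (28.2 CPM per kb), Ccl3 (27.3 CPM per kb) and Ccl4 (26.01 CPM per kb) were also high and lay close to each other. Among these 3 the order changed between the groups, so their ranks are not told apart by these libraries.

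**Figure D1:**
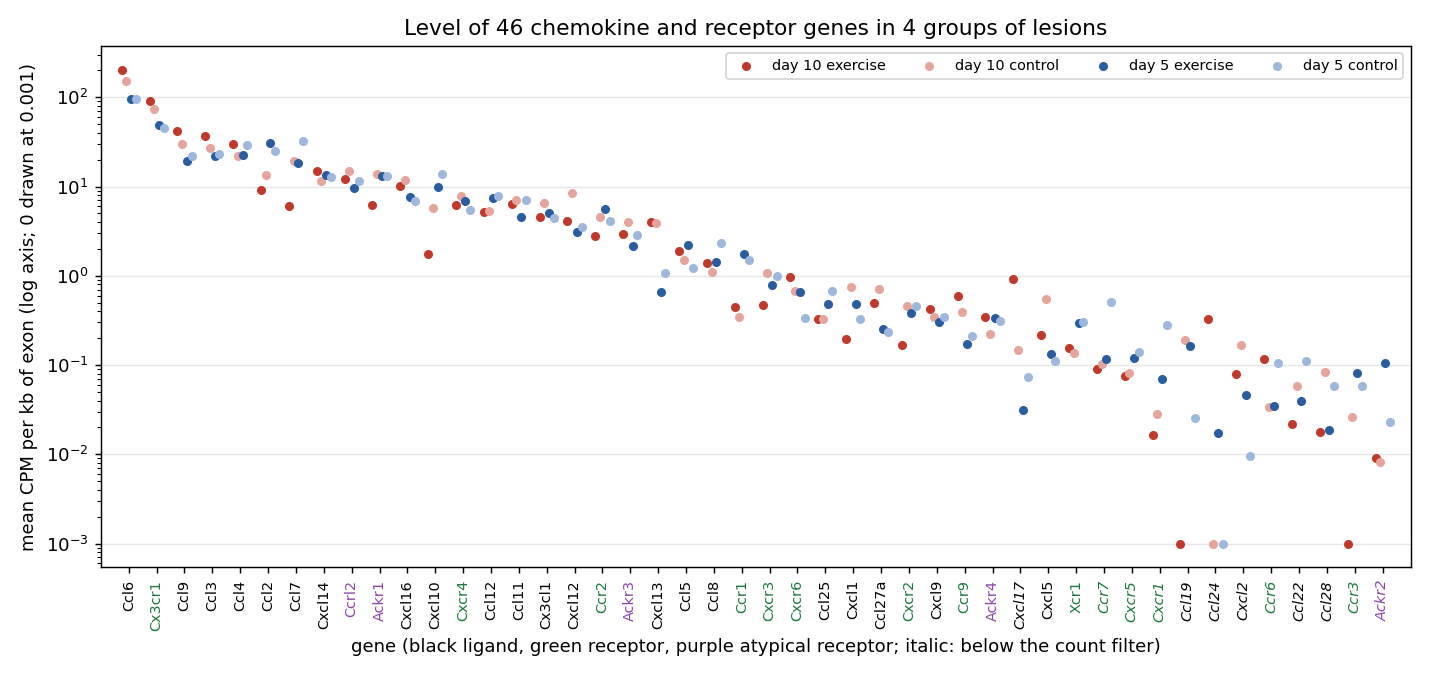
Group means in CPM per kb of exon (vertical log axis, values of 0 drawn at 0.001) of 46 genes ordered from the highest to the lowest, with the 4 groups of 4 libraries in colour. Ccl6 is highest in every group, and the 12 genes in italics, nearly all at the right, fell below the filter on low counts.

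At the other end, 12 of the 47 genes had too few reads to be tested. Ccr7, which brings lymphocytes and dendritic cells to lymph nodes, had 77 reads in the 16 libraries together, its ligand Ccl19 had 15, and Cxcr5, which brings B cells to follicles, had 53. The remaining untested genes were Cxcl17 with 39 reads, Ccl28 with 32, Cxcl2 with 28, Ccr6 with 27, Ccl22 with 26, Cxcr1 with 26, Ccr3 with 24, Ccl24 with 18 and Ackr2 with 17. Reads of several of them came mainly from a single library: exercise 19 at day 10 held 14 of the 18 reads of Ccl24, and control 5 at day 5 held 18 of the 26 reads of Cxcr1. Ccr4, Ccr8 and Cxcl15 had no read in any library. A library with no read allows a level of up to 0.215 CPM in the deepest and 0.369 CPM in the shallowest library, taking 3 counts as the limit, and this covers counting error only.

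Reads of the 47 genes together made up more of the libraries at day 10 than at day 5. Before composition scaling, the sum was 1117 to 1385 CPM in day 10 exercise and 739 to 885 CPM in day 5 exercise libraries, and 1022 to 1191 CPM in day 10 control and 726 to 972 CPM in day 5 control libraries. Neither pair overlapped. The sum was weighted to its highest genes, since Ccl6 held 23.9% and Cx3cr1 23.8% of all these reads. It is therefore not a trait of the whole family. By the sign of the fold change, 19 of the 35 tested genes were higher at day 10 in exercise and 16 lower. In control 22 were higher and 13 lower. Whether the sum differed between the days without Ccl6 and Cx3cr1 was not tested. In bulk tissue, more cells of a type and more RNA per cell cannot be told apart, here or in the results that follow.

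Between day 5 and day 10 of exercise, 10 of the 35 tested genes changed, 5 up and 5 down. Among those that rose were the macrophage chemokines Ccl6 and Ccl9, the B cell chemokine Cxcl13 and the receptor Cx3cr1, with folds of 1.82 to 5.92. Those that fell were the monocyte chemokines Ccl2 and Ccl7, the interferon-induced Cxcl10, the receptor Ccr1 and the atypical receptor Ackr1, with folds of 2.10 to 5.58. In control lesions 5 of the 35 changed over the same days: Cxcl12, Cxcl16 and Cx3cr1 rose, and Ccr1 and Ccl2 fell. Calls are edgeR's quasi-likelihood test at an adjusted p under 0.05, adjusted over all genes.

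Of all genes tested, 10.1% passed this threshold in exercise (5.17% higher, 4.9% lower), against 28.6% of the chemokine genes. In control lesions 12.3% of all genes passed (5.66% higher, 6.64% lower), and the chemokine share of 14.3% was near that background. The median log2 fold change of the 35 genes was 0.16 in exercise, beside 0.01 over all genes, and 0.13 in control, beside 0.01. Groups did not overlap for 8 of the 35 genes in exercise (5 higher, 3 lower), beside 14.1% of all genes (7% higher, 7.09% lower). In control they did not overlap for 9 (5 higher, 4 lower), beside 20% of all genes (9.33% higher, 10.7% lower). Without exercise 17 the exercise count was again 10, with Ccr9 in place of Cxcl10, beside 1839 of 15414 genes. The exercise and control comparisons share no library. The sign of the day difference was the same in both for 22 of the 35 genes, for 8 of the 10 called in exercise and for 5 of the 5 called in control.

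**Figure D2:**
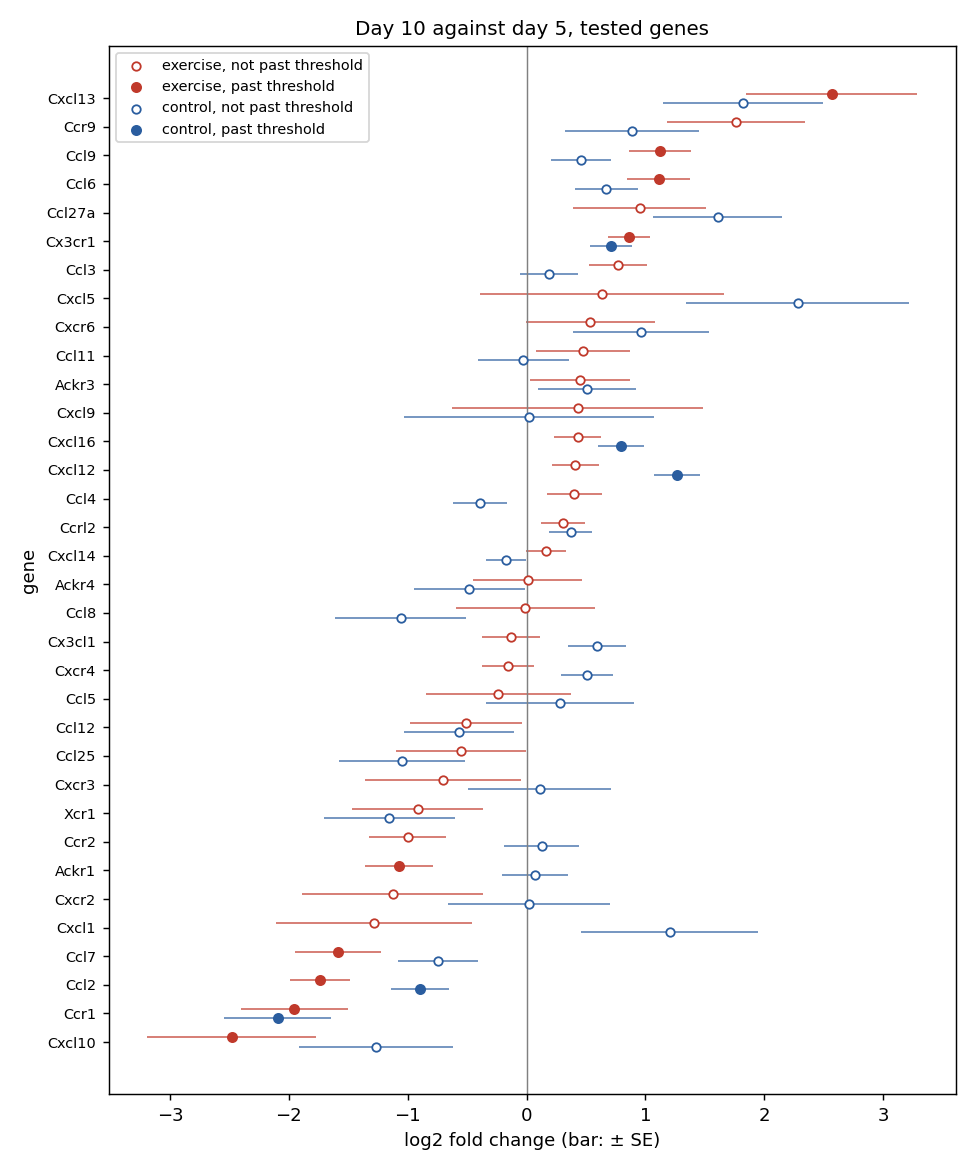
Log2 fold change of day 10 over day 5 (horizontal axis, bars ± SE) of 34 tested genes, exercise above control in each row and filled where the adjusted p is under 0.05. Cx3cr1, Ccl2 and Ccr1 are filled in both, and Cxcl13 and Cxcl10 mark the ends of the exercise range.

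Markers of the cells that make and sense chemokines also differed between the days. Of 8 microglial markers, 5 rose in exercise (median log2 fold change 1.15) and 3 in control (median 0.66), none fell, and their sum was 7014 to 14341 CPM in day 10 exercise and 6336 to 8585 CPM in day 5 exercise, and 6376 to 8608 CPM in day 10 control and 7560.3 to 10182 CPM in day 5 control lesions. Of 8 monocyte and macrophage markers, 4 fell and 1 rose in exercise, with sums of 4917 to 6942 CPM at day 10 and 7358 to 12206 CPM at day 5. In control 2 fell and 1 rose, with sums of 5755 to 6949.5 CPM at day 10 and 6767 to 12623 CPM at day 5. Neutrophil markers summed to 2.93 to 4.26 CPM in day 10 exercise and 13.2 to 24.5 CPM in day 5 exercise, and to 4.18 to 8.27 CPM in day 10 control and 5.23 to 23.2 CPM in day 5 control lesions. Of 8 astrocyte markers, 2 rose in exercise, with sums of 4802 to 6936 CPM at day 10 and 3769 to 6470.2 CPM at day 5, and 5 rose in control. Of 8 endothelial markers, 4 fell and none rose in exercise, and 1 rose and none fell in control. Their part in the chemokine results was not tested.

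Ccl6 (ENSMUSG00000018927, GRCm38 chr11:83587882-83593087, minus strand) had 421, 441, 346 and 256 CPM in day 10 exercise libraries and 91.1, 222, 181 and 184 CPM in day 5 exercise libraries. All 4 day 10 libraries lay above all 4 day 5 libraries. Its day 10 over day 5 log2 fold change was 1.11 (SE 0.27, adjusted p = 0.0135, edgeR's quasi-likelihood test). In control lesions it had 241, 204, 296 and 338 CPM at day 10 and 175, 171, 232 and 101 CPM at day 5, where the groups overlapped and the log2 fold change of 0.67 (SE 0.26) did not pass the test.

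Ccl9 (ENSMUSG00000019122, GRCm38 chr11:83572919-83578636, minus strand), the neighbour of Ccl6 and like it a chemokine of mouse macrophages that acts through CCR1, had 151, 127, 133 and 96.2 CPM in day 10 exercise and 37.01, 83.5, 65.6 and 47.6 CPM in day 5 exercise libraries. These groups did not overlap, and the log2 fold change was 1.123 (SE 0.26, adjusted p = 0.0108, edgeR's quasi-likelihood test). Control lesions had 93.3, 65.4, 91.6 and 115 CPM at day 10 and 81.1, 63.7, 84.2 and 37.4 CPM at day 5. There the groups overlapped, and the log2 fold change of 0.46 did not pass. In day 5 exercise the lowest value of both genes came from library 1, and in day 5 control from library 6.

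Promoter windows of this neighbouring pair are shown because both genes rose in exercise by nearly the same fold (2.16 and 2.18). They run from 250 bases before to 50 bases after the start site, from RefSeq on GRCm38.p6, at chr11:83593038-83593337, minus strand and chr11:83578587-83578886, minus strand. Capitals mark matches to the AP-1 motif TGANTCA or to the NF-kB consensus, which do not overlap here.
Ccl6: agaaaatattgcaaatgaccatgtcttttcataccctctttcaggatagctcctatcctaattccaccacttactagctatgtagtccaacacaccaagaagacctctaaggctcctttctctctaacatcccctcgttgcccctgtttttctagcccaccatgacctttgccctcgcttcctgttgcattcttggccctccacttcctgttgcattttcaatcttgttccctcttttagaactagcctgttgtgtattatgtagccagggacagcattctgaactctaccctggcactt
Ccl9: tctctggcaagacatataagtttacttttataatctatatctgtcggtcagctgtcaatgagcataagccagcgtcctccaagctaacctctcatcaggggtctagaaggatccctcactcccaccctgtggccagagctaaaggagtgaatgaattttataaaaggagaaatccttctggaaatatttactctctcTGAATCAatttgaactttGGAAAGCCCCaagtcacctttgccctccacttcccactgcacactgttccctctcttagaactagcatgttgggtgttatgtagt
In the Ccl9 window the AP-1 match began 53 bases and the NF-kB match 35 bases before the start site, while the Ccl6 window held neither, nor the core of the interferon-stimulated response element, TTTC and TTTC with 2 bases between. Searched on both strands, AP-1 matched 7.81%, NF-kB 4.51% and the interferon core 3.44% of the 32851 mouse promoters searched. In that order, 6, 9 and 3 of the 35 chemokine genes that have an entry held a match. A gene counted if any of its windows matched, so the gene counts are not in the same unit as the promoter shares. A match is a description of the letters in this window and not evidence of binding.

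Cxcl13 (ENSMUSG00000023078, GRCm38 chr5:95956951-95961068, plus strand), which attracts B cells through CXCR5, had 4.66, 4.78, 7.54 and 1.52 CPM in day 10 exercise libraries and 0.451, 0.127, 0.771 and 1.66 CPM in day 5 exercise libraries. The ranges met at their edges, since exercise 19 at day 10 was below exercise 12 at day 5. The log2 fold change was 2.57 (SE 0.72, adjusted p = 0.0296, edgeR's quasi-likelihood test), and 1.82 in control lesions, with 5.16, 1.55, 5.12 and 5.89 CPM at day 10 and 2.23, 0.250, 0.267 and 2.18 CPM at day 5 and no call. The exercise call was lost without day 5 exercise 1 (adjusted p = 0.0748), 2 (0.0839) or 7 (0.0746) or day 10 exercise 18 (0.0796). Its receptor Cxcr5 stayed under the count filter, and lymphocyte markers were near 0 in these libraries.

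Ccl2 (ENSMUSG00000035385, GRCm38 chr11:82035571-82037453, plus strand), the main CCR2 ligand that calls monocytes out of blood, fell in exercise and in control lesions. In exercise it had 10.6, 7.71, 12.2 and 11.1 CPM at day 10 and 19.05, 27.998, 39.6 and 51.9 CPM at day 5, and in control 19.7, 12.998, 14.2 and 13.8 CPM at day 10 and 28.9, 31.2, 31.6 and 21.6 CPM at day 5. Neither pair of groups overlapped. On the log2 scale the change was -1.73 in exercise (SE 0.25, adjusted p = 0.000443, edgeR's quasi-likelihood test) and -0.90 in control (SE 0.25, adjusted p = 0.0219). The control call was lost without any of day 5 control 1, 2 or 5 or day 10 control 3, 4 or 5, where the adjusted p was 0.0503 to 0.0675, and the exercise call was kept without each library.

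Ccl7 (ENSMUSG00000035373, GRCm38 chr11:82045712-82047525, plus strand), a second CCR2 ligand beside Ccl2 on the chromosome, had 6.43, 4.49, 3.64 and 5.07 CPM in day 10 exercise libraries and 7.40, 12.2, 19.6 and 19.8 CPM in day 5 exercise libraries. The groups did not overlap, although exercise 1 at day 5 came within about 1 CPM of exercise 13 at day 10. The log2 change in level was -1.59 (SE 0.36, adjusted p = 0.00946, edgeR's quasi-likelihood test), and the call was lost under limma-voom (adjusted p = 0.0785). Control lesions had 14.6, 15.2, 13.96 and 18.7 CPM at day 10 and 31.7, 28.6, 35.1 and 9.38 CPM at day 5, with library 6 far below the other 3 at day 5 and a log2 fold change of -0.75 that did not pass.

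Called genes of opposite direction lay in different blocks of chromosome 11, a grouping chosen after the values were seen, though neither block as a whole had a single direction. In the block at chr11:82035571-82116799, Ccl2 and Ccl7 fell in exercise, while Ccl11, Ccl12 and Ccl8 did not pass in either comparison, with exercise log2 fold changes of 0.48, -0.51 and -0.01. In the block at chr11:83525778-83664683, Ccl9 and Ccl6 rose in exercise. Its other genes, Ccl5, Ccl3 and Ccl4, did not pass, with log2 fold changes of -0.24, 0.77 and 0.40 in exercise and 0.28, 0.19 and -0.39 in control.

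**Figure D3:**
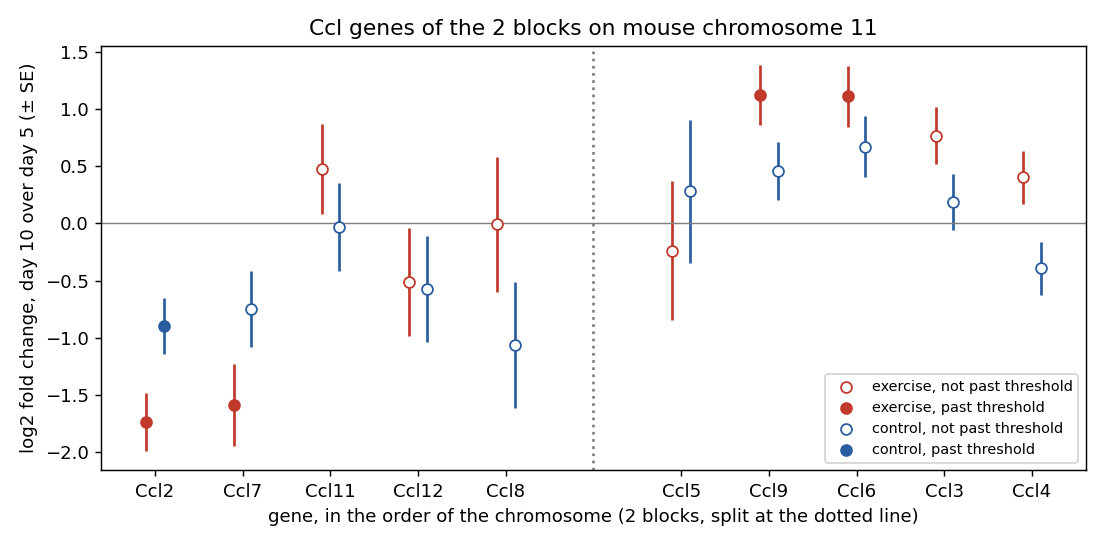
Log2 fold change of day 10 over day 5 (vertical axis, ± SE) for the Ccl genes of 2 blocks on chromosome 11 in their order on the chromosome, exercise left of control and filled where the adjusted p is under 0.05. Filled exercise points lie below 0 for Ccl2 and Ccl7 and above 0 for Ccl9 and Ccl6.

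Cxcl10 (ENSMUSG00000034855, GRCm38 chr5:92346638-92348889, minus strand), an interferon-induced ligand of CXCR3 that activated glia and macrophages make, spread widely between libraries. It had 3.82, 2.83, 3.72 and 5.48 CPM in day 10 exercise and 24.5, 4.31, 16.5 and 42.6 CPM in day 5 exercise libraries, where exercise 2 alone lay within the day 10 range. The log2 fold change was -2.48 (SE 0.71, adjusted p = 0.0384, edgeR's quasi-likelihood test). In control lesions it had 14.4, 3.999, 28.3 and 5.73 CPM at day 10 and 10.3, 23.2, 57.8 and 34.5 CPM at day 5, overlapping widely, with a log2 fold change of -1.27 and no call. The exercise call was kept without day 5 exercise 2 and lost without each of the other 7 libraries, day 5 exercise 1 (adjusted p = 0.0621), 7 (0.0568) and 12 (0.118) and day 10 exercise 13 (0.0789), 17 (0.0889), 18 (0.0873) and 19 (0.0658).

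The Cxcl10 promoter window (chr5:92348840-92349139, minus strand) is shown because it held all 3 motifs searched, with the interferon core, the NF-kB consensus and AP-1 in capitals.
Cxcl10: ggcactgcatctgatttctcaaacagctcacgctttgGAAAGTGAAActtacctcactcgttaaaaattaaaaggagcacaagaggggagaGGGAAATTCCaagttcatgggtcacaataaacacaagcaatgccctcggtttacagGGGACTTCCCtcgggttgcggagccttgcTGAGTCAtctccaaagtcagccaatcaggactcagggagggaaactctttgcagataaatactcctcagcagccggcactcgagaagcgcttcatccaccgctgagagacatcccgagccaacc
The interferon core began 213 bases, the NF-kB matches 159 and 103 bases and the AP-1 match 74 bases before the start site. The interferon response factors Stat2 and Irf7, on the list of chemokine inducers, fell in exercise between the days, by log2 fold changes of -0.86 (SE 0.23, adjusted p = 0.0221, edgeR's quasi-likelihood test) and -2.28 (SE 0.61, adjusted p = 0.0269). The other called genes of that list, Ifngr1 and the NF-kB subunit Nfkb1, rose in exercise, by 0.81 and 0.58 on the log2 scale (adjusted p = 5.23e-05 and 0.00157). Without single libraries the adjusted p reached 0.0744 for Stat2 (lost without day 5 exercise 12 or day 10 exercise 13). For Irf7 it reached 0.0881 (lost without day 5 exercise 12 or day 10 exercise 13, 17 or 19). The fit with the replicate number as a block also lost Stat2, and the fit without a filter on low counts also lost Irf7. The part of these genes and motifs in the Cxcl10 level was not tested. Cxcl9, the other CXCR3 ligand of that chromosome 5 block, had 0.559 to 1.77 CPM in day 10 exercise and 0 to 2.67 CPM in day 5 exercise libraries, and did not pass.

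Cxcl12 (ENSMUSG00000061353, GRCm38 chr6:117168535-117181367, plus strand), the CXCR4 ligand of vessels, meninges and astrocytes, rose in control lesions. It had 75.8, 72.3, 57.3 and 73.7 CPM in day 10 control libraries and 33.2, 30.6, 36.3 and 16.3 CPM in day 5 control libraries, with no overlap, and a log2 fold change of 1.27 (SE 0.20, adjusted p = 0.000458, edgeR's quasi-likelihood test). Exercise lesions had 29.4, 29.6, 44.6 and 30.2 CPM at day 10 and 23.2, 27.2, 26.1 and 24.3 CPM at day 5. These also did not overlap, but the log2 fold change of 0.41 (SE 0.20) did not pass. The test of the difference between the day effects did not pass either (difference in log2 fold change -0.86, SE 0.28, adjusted p = 0.490). Among 8 fibroblast and meningeal markers, 3 rose in control lesions, where their sum was 3478 to 4757 CPM at day 10 and 641 to 2476 CPM at day 5, and 5 of 8 astrocyte markers rose there, with sums of 6383 to 7723 CPM at day 10 and 3173 to 5879 CPM at day 5, without overlap. Their part in the Cxcl12 result was not tested.

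Cxcl12 is printed beside Cxcl10 because its window (chr6:117168285-117168584, plus strand) held none of the 3 motifs.
Cxcl12: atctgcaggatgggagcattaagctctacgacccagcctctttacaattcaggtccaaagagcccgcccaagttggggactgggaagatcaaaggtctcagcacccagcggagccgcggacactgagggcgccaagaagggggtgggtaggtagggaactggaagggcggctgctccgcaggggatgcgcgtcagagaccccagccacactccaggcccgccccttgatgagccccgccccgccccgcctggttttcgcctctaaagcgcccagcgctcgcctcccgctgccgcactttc
The absence of a match says only that these letters do not occur in this window.

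Cxcl16 (ENSMUSG00000018920, GRCm38 chr11:70453983-70459984, minus strand), a membrane-bound ligand of CXCR6, had 36.98, 35.6, 38.4 and 33.6 CPM in day 10 control and 25.4, 19.4, 16.3 and 22.02 CPM in day 5 control libraries. The groups did not overlap, and the log2 fold change was 0.80 (SE 0.19, adjusted p = 0.0110, edgeR's quasi-likelihood test). Exercise lesions had 29.99, 25.6, 36.4 and 30.1 CPM at day 10 and 17.6, 35.1, 18.7 and 19.7 CPM at day 5, with exercise 2 at day 5 as high as day 10. The log2 fold change there, 0.43, did not pass.

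Among the receptors, Cx3cr1 (ENSMUSG00000052336, GRCm38 chr9:119901616-120068283, minus strand), the receptor for fractalkine, rose in both. In exercise it had 379, 373, 239 and 353 CPM at day 10 and 259, 163, 149.6 and 169 CPM at day 5, and in control 221, 286, 293 and 299.9 CPM at day 10 and 154, 147, 165 and 207 CPM at day 5. The control groups did not overlap, while in exercise library 1 at day 5 lay above library 18 at day 10. Its fitted log2 fold change was 0.86 in exercise (SE 0.18, adjusted p = 0.00505, edgeR's quasi-likelihood test) and 0.71 in control (SE 0.18, adjusted p = 0.0132).

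Ccr1 (ENSMUSG00000025804, GRCm38 chr9:123962126-123968692, minus strand), a receptor of monocytes and neutrophils for Ccl3, Ccl5, Ccl6 and Ccl9, fell while its ligands Ccl6 and Ccl9 rose in exercise. It had 0.652, 2.73, 0.798 and 0.913 CPM in day 10 exercise and 5.24, 4.94, 4.44 and 5.16 CPM in day 5 exercise libraries, and 1.52, 0.818, 0.652 and 0.901 CPM in day 10 control and 5.41, 6.25, 3.39 and 1.89 CPM in day 5 control libraries. Both pairs were apart, with exercise 17 above the other 3 libraries of its group. The fit gave a log2 fold change of -1.95 in exercise (SE 0.45, adjusted p = 0.00982, edgeR's quasi-likelihood test) and -2.09 in control (SE 0.45, adjusted p = 0.00543). Without exercise 17 the exercise value was -2.63 (adjusted p = 0.000838). Day 10 libraries held only 7 to 28 reads of Ccr1 in exercise and 7 to 20 in control.

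Ccr2, the monocyte receptor, on chromosome 9, did not pass, with 22.6, 17.8, 12.2 and 18.8 CPM in day 10 exercise and 18.1, 56.9, 39.7 and 28.6 CPM in day 5 exercise, and 21.6, 22.7, 33.5 and 38.4 CPM in day 10 control and 37.9, 31.8, 17.1 and 19.5 CPM in day 5 control libraries. The groups overlapped in both pairs, and the exercise test gave an adjusted p of 0.0576. Cxcr4, the CXCL12 receptor, had 11.2 ± 2.45 CPM in day 10 exercise, 14.03 ± 2.05 CPM in day 10 control, 12.5 ± 3.02 CPM in day 5 exercise and 9.88 ± 2.53 CPM in day 5 control lesions (mean ± SD, n = 4 each), and did not pass a test between days. The lymphocyte receptors Cxcr3 and Cxcr6 and the dendritic cell receptor Xcr1 stayed under 4 CPM in every library.

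**Figure D4:**
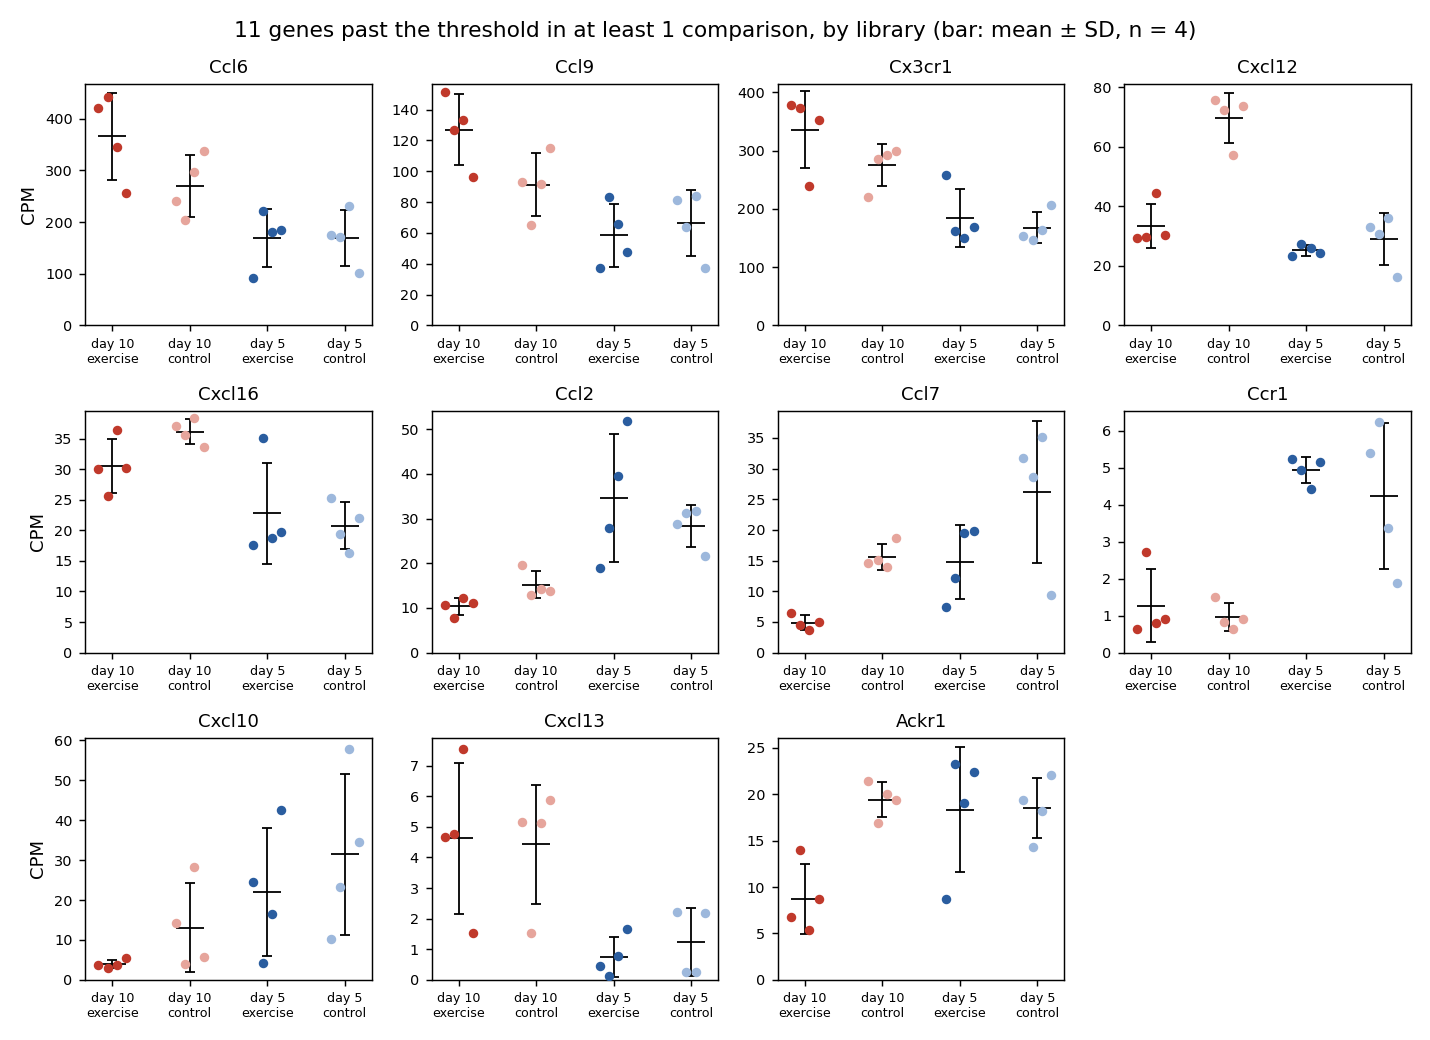
CPM of each library (points) with the group mean ± SD (bars, n = 4) for 11 genes past the threshold in at least 1 comparison, day 10 exercise, day 10 control, day 5 exercise and day 5 control from left to right. Cxcl12 stands high in day 10 control only, and Ccl7 and Ackr1 stand low in day 10 exercise.

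Ackr1 (ENSMUSG00000037872, GRCm38 chr1:173331886-173333750, minus strand), an atypical receptor of venular endothelium and red cells that binds many inflammatory chemokines, fell in exercise. It had 6.80, 13.96, 5.41 and 8.73 CPM in day 10 exercise and 8.67, 23.3, 19.1 and 22.4 CPM in day 5 exercise libraries, where exercise 1 lay within the day 10 range. The log2 fold change was -1.07 (SE 0.29, adjusted p = 0.0230, edgeR's quasi-likelihood test), but the call was lost without day 5 exercise 2 (0.0736), 7 (0.0559) or 12 (0.0649) or day 10 exercise 13 (0.0571), 18 (0.0628) or 19 (0.0571). Control lesions had 21.4, 16.9, 20.01 and 19.4 CPM at day 10 and 19.4, 14.3, 18.2 and 22.1 CPM at day 5, overlapping, with a log2 fold change of 0.07. Its exons share 284 bases with Cadm3 on the same strand, so its counts are uncertain there.

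Of the other atypical receptors, Ccrl2, which binds chemerin and presents it to other cells, had 31.3 ± 5.47 CPM in day 10 exercise, 39.1 ± 3.32 CPM in day 10 control, 25.3 ± 5.08 CPM in day 5 exercise and 30.2 ± 7.77 CPM in day 5 control. Ackr3, the CXCL12 scavenger, had 9.83 ± 4.21, 13.5 ± 3.97, 7.15 ± 4.82 and 9.48 ± 3.77 CPM in these groups in the same order (mean ± SD, n = 4 each). Neither passed a test between days, nor did Ackr4.

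The other macrophage ligands of the Ccl3 block did not pass the test between days. Ccl3 had 32.8, 37.4, 25.4 and 18.6 CPM in day 10 exercise and 14.3, 16.5, 14.3 and 22.01 CPM in day 5 exercise libraries, with overlap and an adjusted p of 0.0536 (log2 fold change 0.77, SE 0.25, edgeR's quasi-likelihood test). Ccl4 had 15.8 to 24.1 CPM in day 10 exercise, 10.7 to 19.3 CPM in day 10 control, 10.5 to 20.2 CPM in day 5 exercise and 14.7 to 24.7 CPM in day 5 control libraries, and the T cell and macrophage chemokine Ccl5 had 0.976 to 3.28, 0.655 to 3.26, 0.887 to 3.96 and 0.500 to 2.11 CPM in that order. All 4 ranges of each gene overlapped.

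Cxcl14, an epithelial and neural chemokine, ranged over 24.03 to 34.9 CPM in day 10 exercise, 16.9 to 25.9 CPM in day 10 control, 21.6 to 30.2 CPM in day 5 exercise and 20.8 to 25.9 CPM in day 5 control libraries. Among the CCR2 and CCR3 ligands beside Ccl2, the eosinophil chemokine Ccl11 ranged over 5.23 to 10.1, 4.82 to 8.84, 3.78 to 5.96 and 1.89 to 11.8 CPM and the monocyte chemokine Ccl12 over 1.83 to 4.98, 1.45 to 3.49, 1.52 to 8.01 and 2.31 to 6.86 CPM in the same order. Ccl8, Ccl25 and Ccl27a stayed under 3 CPM in every library, as did Cxcl5 and Cxcl1, ligands of the neutrophil receptor CXCR2. Near-identical gene copies make the counts of Ccl27a uncertain.

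Ccr9, the gut-homing receptor for Ccl25, had 1.58, 1.56, 2.31 and 5.68 CPM in day 10 exercise and 1.17, 0.633, 0.482 and 0.921 CPM in day 5 exercise libraries, without overlap, and did not pass (1.76 on the log2 scale, SE 0.58, adjusted p = 0.0608, edgeR's quasi-likelihood test). Its exons share 269 bases with Gm17200 on the same strand, so its counts are uncertain. Ccr7, below the filter, had 0, 0, 0.621 and 0.101 CPM in day 10 exercise, 0, 0.273, 0.465 and 0.0819 CPM in day 10 control, 0.181, 0, 0.386 and 0.368 CPM in day 5 exercise and 0.954, 1.33, 0.713 and 1.02 CPM in day 5 control libraries. Its day 5 control libraries lay above all others, a pattern singled out after its values were seen and not tested.

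Ligand and receptor levels can be set side by side per kb of exon, since raw CPM depends on gene length. The length is that of all exons of a gene. Coverage along the transcripts was not checked, so the order within a pair is uncertain. Fractalkine, Cx3cl1, made by neurons, had 4.61 CPM per kb in day 10 exercise, 6.61 in day 10 control, 5.05 in day 5 exercise and 4.39 in day 5 control, beside 89.8, 73.5, 49.4 and 44.9 CPM per kb of its receptor Cx3cr1 in that order. The receptor was above its ligand in all 4 groups. For the monocyte pair the ligand was above its receptor per kb, with Ccl2 at 9.14, 13.3, 30.5 and 24.9 CPM per kb and Ccr2 at 2.79, 4.54, 5.60 and 4.16 CPM per kb in the same 4 groups. Without division by length, Ccr2 had the same 138 reads as Ccl2 in exercise 18 at day 10. It had more CPM than Ccl2 in every other day 10 library. Cxcl16 was likewise above Cxcr6, at 10.1 against 0.974 CPM per kb in day 10 exercise and 11.97 against 0.670 CPM per kb in day 10 control.

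For the CXCL12 axis the ligand stood at 4.09 CPM per kb in day 10 exercise, 8.53 in day 10 control, 3.08 in day 5 exercise and 3.56 in day 5 control. Its signalling receptor Cxcr4 stood at 6.21, 7.76, 6.91 and 5.46 CPM per kb and its scavenger Ackr3 at 2.94, 4.02, 2.14 and 2.83 CPM per kb in that order. Per kb the ligand was above Cxcr4 in day 10 control and below it in the other 3 groups. This order depends on the division by length, since Cxcl12 had more CPM than Cxcr4 in every library. Cxcr3 stood at 0.471, 1.08, 0.780 and 0.994 CPM per kb in those groups, beside 1.76, 5.81, 9.76 and 13.98 CPM per kb of its ligand Cxcl10.

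The neutrophil axis was scarce. Cxcl1, the ligand that draws neutrophils through CXCR2, had 0.559, 0, 0 and 0.913 CPM in day 10 exercise, 1.90, 2.27, 0.745 and 0.737 CPM in day 10 control, 0.361 to 1.74 CPM in day 5 exercise and 0.436 to 0.99969 CPM in day 5 control libraries. Cxcr2 ranged over 0.203 to 0.838, 0.364 to 3.77, 0.361 to 2.12 and 0.891 to 2.67 CPM in that order. No group of either gene stood clear of the others, and no test passed for them.

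Whether running altered the chemokine genes was asked at each day. At day 10, 1 of the 35 genes, Cxcl12, was lower in exercise than in control lesions, and none was higher. Over all genes 0.192% passed (0.106% higher, 0.0861% lower). At an unadjusted p under 0.05 there were 10 of 35 chemokine genes, beside 12.8% of all genes, and the median log2 fold change was -0.03, beside 0.01 over all genes. Exercise and control groups did not overlap for 4 genes, all lower in exercise (Cxcl12, Ccl7, Ackr1 and Ccl2), beside 5.88% of all genes (3.3% higher, 2.58% lower). Without exercise 17, edgeR called 0 of the chemokine genes and 0 of all 15414 genes tested. The groups then did not overlap for 6 chemokine genes. With 1 library fewer, non-overlap is more frequent for any gene, and its share over all genes was not computed. This comparison and the day comparisons above share their day 10 libraries.

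Cxcl12 was 2.08-fold lower at day 10 in exercise, with the per-library values given above (33.5 ± 7.44 CPM in exercise and 69.8 ± 8.41 CPM in control, mean ± SD, n = 4 each). Exercise 18, at 44.6 CPM, was above the other 3 exercise libraries (29.4 to 30.2 CPM) and still below the lowest control library at 57.3 CPM. For exercise over control at day 10 the log2 fold change was -1.06 (SE 0.20, adjusted p = 0.0401, edgeR's quasi-likelihood test). The call was lost without exercise 13 (adjusted p = 0.0723), 17 (0.0738) or 19 (0.0946) or control 2 (0.127), 3 (0.112) or 5 (0.0897), and kept without exercise 18 (0.0123) or control 4 (0.0433). It was also lost when only these 8 libraries were fitted (0.0936) and with the replicate number as a block (0.265).

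Marker sums of the vessel wall and of fibroblasts stood beside this difference. Mural cell markers summed to 178 to 206 CPM in day 10 exercise and 229 to 276 CPM in day 10 control, without overlap, and 8 of 8 had a lower mean in exercise, although none passed the test. Endothelial markers summed to 198 to 264 CPM and fibroblast markers to 1287 to 3867 CPM in day 10 exercise, against 223 to 275 and 3478 to 4757 CPM in day 10 control, and 1 marker of each list fell. Lower levels in exercise were not particular to mural markers. They were seen for 7 of 8 endothelial, 6 of 8 fibroblast, 7 of 8 astrocyte, 8 of 8 oligodendrocyte and 6 of 7 Schwann cell markers. The same held for 6 of 8 monocyte and macrophage markers, of which 1 passed, and for 3 of 3 tested neutrophil markers. Microglial markers were higher for 8 of 8 and neuronal markers for 4 of 8. Astrocyte marker sums overlapped, at 4802 to 6936 CPM in exercise and 6383 to 7723 CPM in control. Per unit of mural marker sum Cxcl12 was 0.147 to 0.217 in exercise and 0.250 to 0.315 in control, per unit of endothelial marker sum 0.112 to 0.220 in exercise and 0.232 to 0.324 in control, and per unit of fibroblast marker sum 0.00916 to 0.0229 in exercise and 0.0148 to 0.0212 in control. The groups stayed apart for the mural and endothelial ratios and overlapped for the fibroblast ratio, a comparison chosen after the values were seen, and the part of these cells in the Cxcl12 level was not tested.

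Ccl7 and Ackr1 came next and did not pass. Ccl7 had 6.43, 4.49, 3.64 and 5.07 CPM in day 10 exercise and 14.6, 15.2, 13.96 and 18.7 CPM in day 10 control libraries, and the 2 ranges were apart. Its log2 fold change was -1.67 (SE 0.36, adjusted p = 0.0613, edgeR's quasi-likelihood test). Ackr1 had 6.80, 13.96, 5.41 and 8.73 CPM in exercise and 21.4, 16.9, 20.01 and 19.4 CPM in control, without overlap, and a log2 fold change of -1.16 (SE 0.29, adjusted p = 0.109). With DESeq2 in place of edgeR both genes passed, with adjusted p of 0.00112 for Ccl7 and 0.0114 for Ackr1. DESeq2 called 218 of 16038 genes there. In the authors' deposited table for day 10, which leaves out exercise 17, the log2 fold changes were -1.64 for Ccl7 (adjusted p = 8.42e-07), -1.49 for Ackr1 (adjusted p = 1.63e-07) and -1.01 for Cxcl12 (adjusted p = 6.55e-05).

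**Figure D5:**
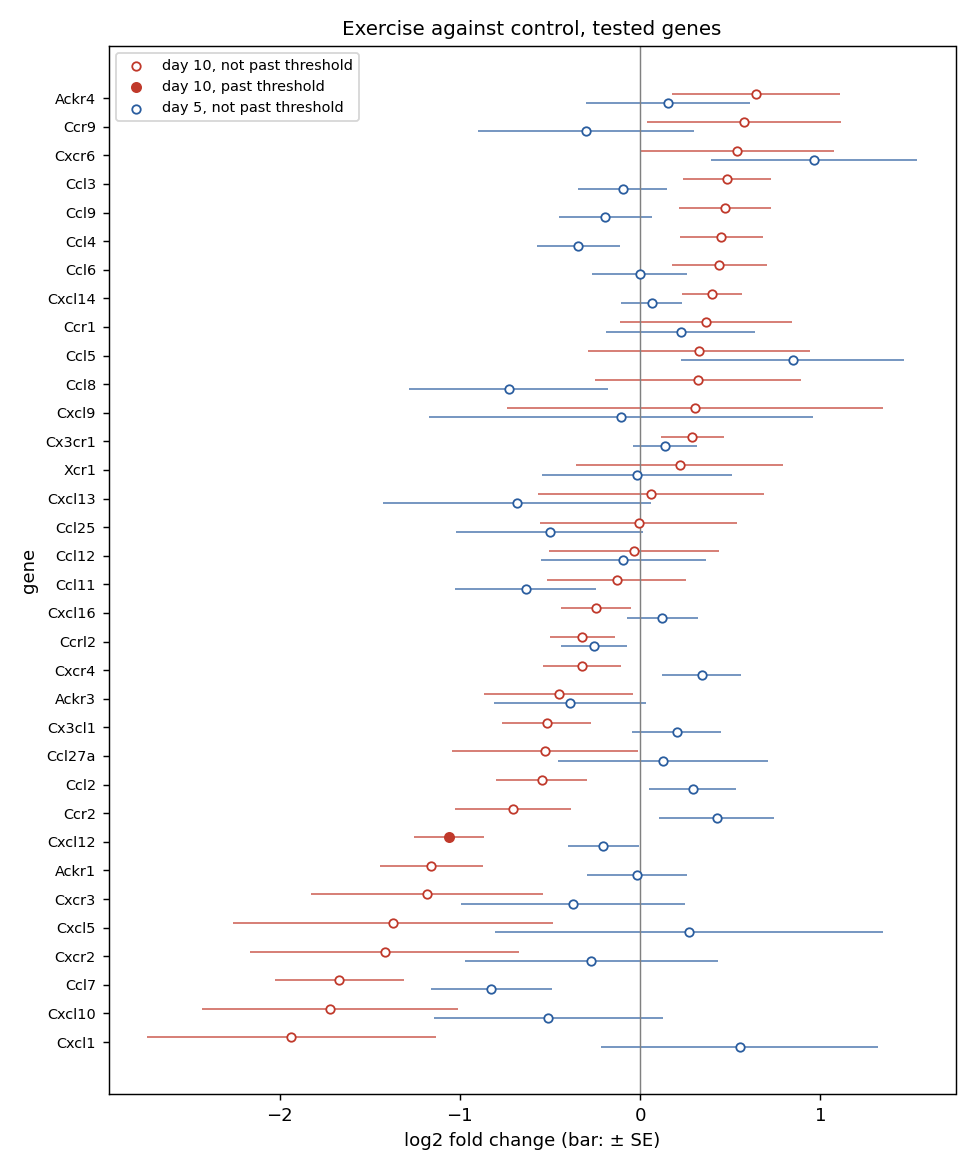
Log2 fold change of exercise over control (horizontal axis, bars ± SE) of 34 tested genes, day 10 above day 5 in each row and filled where the adjusted p is under 0.05. Cxcl12 at day 10 is the only filled point.

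At day 5 no chemokine gene passed the test between exercise and control, and over all genes 0% passed, so edgeR made no call at all. At an unadjusted p under 0.05 there was 1 of 35, Ccl7, beside 10% of all genes. DESeq2 also called 0 chemokine genes, but it called 79 of the 8944 genes to which it gave an adjusted p. The genes with the smallest p were Ccl7, with 7.40, 12.2, 19.6 and 19.8 CPM in exercise and 31.7, 28.6, 35.1 and 9.38 CPM in control (log2 fold change -0.83, SE 0.34, adjusted p = 0.444), the low Cxcr6 (0.96, SE 0.57, adjusted p = 0.589) and the eosinophil chemokine Ccl11 (-0.64, SE 0.39, adjusted p = 0.607, all edgeR's quasi-likelihood test). Groups overlapped for each of the 35 genes, while 7.29% of all genes (3.33% higher, 3.97% lower) did not overlap. The part of the higher mt-Rnr2 share of day 5 exercise libraries was not tested.

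Averaged over both days, 0 of 35 genes passed, beside 0.146% of all genes (0.0861% higher, 0.0596% lower), with 5 of 35 at an unadjusted p under 0.05, beside 13.6%. The nearest were Ccl7 (log2 fold change -1.25, SE 0.25, adjusted p = 0.0515, edgeR's quasi-likelihood test), Cxcl12 (-0.63, SE 0.14, adjusted p = 0.0651) and Ackr1 (-0.59, SE 0.20, adjusted p = 0.201). DESeq2 called 2, Ccl7 and Cxcl12, beside 323 of 13513 genes. Ccl7 passed in edgeR without day 5 control 6 (adjusted p = 0.0139) or day 10 exercise 17 (0.0496) or 18 (0.0459), and Cxcl12 without day 5 control 6 (0.0161) or day 10 exercise 18 (0.0254).

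A different exercise effect at the 2 days was tested directly and passed for 0 of 35 genes, beside 0% of all genes, in edgeR. In DESeq2 it passed for 0 chemokine genes, beside 13 of 10977 genes. At an unadjusted p under 0.05 there were 8 of 35, beside 9.11% of all genes. Among the smallest p were those of Cxcl12, given above, and of Ackr1 (difference in log2 fold change -1.14, SE 0.40, adjusted p = 0.504, edgeR's quasi-likelihood test).

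Genes of the steps around the receptors were counted by list, beside 10.1% of all genes called between the days in exercise and 12.3% in control. Of 34 tested genes of chemokine receptor signalling, 6 rose and 1 fell between the days in exercise (20.6% called), and 2 rose and 2 fell in control (11.8%, near the share of all genes). Prex1, which activates Rac below G protein-coupled receptors, rose by 0.56 (SE 0.10, adjusted p = 0.00144) in exercise and by 0.31 (SE 0.10, adjusted p = 0.0438) in control on the log2 scale, by edgeR's quasi-likelihood test. The other genes that rose in exercise were Gng12, Dock2, Rap1a, Plcb3 and Elmo1, and Pik3r5 fell. In control Rap1a rose as well and Gnai3 and Rap1b fell. Of these, Prex1, Gng12 and Dock2 in exercise and Gnai3 in control kept the call without each library. The call of Prex1 in control was lost in 7 of 8 such fits, and those of Plcb3 in 1, Rap1a in 3, Elmo1 in 4 and Pik3r5 in 6 in exercise and of Rap1a and Rap1b in 4 each in control.

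Dock2, the Rac activator that leukocytes need to migrate toward chemokines, was also higher in exercise than in control lesions at day 10, by 0.68 on the log2 scale (SE 0.11, adjusted p = 0.0374, edgeR's quasi-likelihood test), and was the only one of the 34 to pass there. C5ar1, the complement C5a receptor, was higher by 0.82 (SE 0.14, adjusted p = 0.0384), the only one of 9 other chemoattractant receptors. Both calls were lost without any one of exercise 13, 17 or 19 or control 2, 3 or 5, with adjusted p of up to 0.127. They were also lost when only these 8 libraries were fitted or with the replicate block, with adjusted p of up to 0.241 for Dock2 and 0.254 for C5ar1. For the mean of both days Dock2 (log2 fold change 0.41, adjusted p = 0.0473) and C5ar1 (0.58, adjusted p = 0.0312, edgeR's quasi-likelihood test) passed as well. Those calls were lost in 12 and 9 of 16 fits without single libraries. Microglial marker sums were 7014 to 14341 CPM in day 10 exercise and 6376 to 8608 CPM in day 10 control, 8 of 8 markers had a higher mean in exercise, and none passed.

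Of the 9 other chemoattractant receptors, 3 rose in exercise between the days (Cmklr1, the chemerin receptor, Gpr183, an oxysterol receptor, and Gpr84), and in control 2 rose (Gpr183 and Cmklr1) and 2 fell (C5ar1 and C3ar1), which is 33.3% called in exercise, beside 10.1% of all genes, and 44.4% in control, beside 12.3%. Gpr183 had log2 fold changes of 0.95 in exercise (SE 0.15, adjusted p = 0.000769) and 0.67 in control (SE 0.15, adjusted p = 0.00657, edgeR's quasi-likelihood test). Of 14 tested genes of receptor desensitisation, 21.4% were called in either comparison, beside the same shares of all genes. Rgs1, which curbs G protein signals of chemokine receptors, fell in both, by log2 fold changes of -1.14 in exercise (SE 0.25, adjusted p = 0.00877) and -1.73 in control (SE 0.26, adjusted p = 0.000387). Rgs10 and Rgs3 rose in exercise, and in control Rgs2 rose and Rgs14 fell. Leaving out single libraries ended the control calls of C3ar1 in 7, Cmklr1 in 5, Rgs2 in 5 and Rgs14 in 6 of 8 fits and the exercise call of Rgs3 in 3, and none of the other calls named here.

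Of 17 tested genes that cut or present chemokines, 1 rose and 2 fell in exercise (17.6% called, beside 10.1% of all genes) and 2 fell in control (11.8%, near the 12.3% of all genes). Mmp2, a protease that cleaves Cxcl12 and Ccl7, rose in exercise by 0.96 on the log2 scale (SE 0.24, adjusted p = 0.0145, edgeR's quasi-likelihood test; 0.0534 without day 5 exercise 12). Mmp8, a protease of neutrophils that is also on the neutrophil marker list, fell in both, the proteoglycan Sdc4 fell in exercise, and the heparan sulphate enzyme Ext2 fell in control. Of 20 tested inducers and regulators, 2 rose and 2 fell in exercise (20% called, beside 10.1% of all genes) and 4 rose in control (20%, beside 12.3%). Ifngr1, the interferon-gamma receptor, and Nfkb1, an NF-kB subunit, rose in both, by log2 fold changes of 0.81 and 0.58 in exercise (adjusted p = 5.23e-05 and 0.00157, edgeR's quasi-likelihood test) and 0.72 and 0.38 in control (adjusted p = 9.10e-05 and 0.0184), while Relb and Il1b rose in control. The control call of Nfkb1 was lost without day 5 control 1 or day 10 control 4 (adjusted p of up to 0.0617) and that of Il1b without day 5 control 2 (0.0516). Leaving out single libraries ended the call of Sdc4 in 5 and of Ext2 in 8 of 8 fits. On the list of other chemokines, 1 of 8 tested genes was called in exercise (12.5%, beside 10.1% of all genes) and 0 in control. It was Cmtm6, which rose by 0.78 on the log2 scale (adjusted p = 0.00196, edgeR's quasi-likelihood test).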

How the data were processed

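RNA-seq counts of 16 libraries in 4 groups of 4 were analysed. Per the labels' protocols, laser-dissected tissue gave amplified, poly(A)-selected, strand-specific libraries, read as single 75 nt ends. FastQC 0.11.4, TopHat2 2.0.10 and Bowtie 1.1.2 were used with GRCm38, per the submitters' processing notes. The deposited values are raw counts per gene ID from featureCounts 1.5.0-p1, taken on the gene's own strand without multi-mapped reads, per the file headers, which can lower genes with near-identical copies such as Ccl27a and Ccl19. The authors' comparison tables hold log2 fold changes and p-values per day, per the file headers. DESeq2 1.12.4 is named in the processing notes. Symbols came from GENCODE mouse release M21 and covered 45229 of 46078 gene IDs.

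Counts were fitted over all 16 libraries with edgeR 4.0.16 in R 4.3.3 (TMM factors 0.925 to 1.05, filterByExpr with a minimum count of 10 and total of 15, robust quasi-likelihood test, 12 residual degrees of freedom, Benjamini-Hochberg over 15096 genes). CPM are TMM-scaled, and the SE is the log2 fold change over the root of F. On simulated data for the day 5 contrast (14871 genes), 66 of 100 genes changed 2-fold and 92 of 100 changed 4-fold were called, with 5 of 14671 unchanged genes. The changed genes were drawn only from those with a mean above 2 CPM, so these shares do not cover chemokine genes below that level. No pair of libraries in a group agreed within counting noise (chi-square per degree of freedom at least 9.63).

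A gene counted among the members is not reported by name here. Members and lists were chosen with earlier results of these data known. Fold changes and tests are printed for members past the threshold and for the 3 with the smallest p in each comparison. Listed pathway genes past the threshold are named, several of them without fold change or test. Alternatives were RLE factors, other filters, DESeq2 1.42.0, limma-voom 3.58.1, only the groups compared, a replicate block and leaving out each library. Same-numbered libraries correlated by -0.07 to 0.07 and were not treated as pairs.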

Additional observations from a re-analysis of the deposited data

Results flagged for a closer look

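For each of the 35 tested genes in each of the 4 groups, the highest and lowest library were set against the other 3, and a library was listed where its gap to the nearest over the group's range exceeded Dixon's 95% critical value. This picked out 8 of 140 sets of 4 libraries, and chance alone picks about 1 in 20. In day 10 exercise, library 17 had 4.98 CPM of Ccl12 (others 1.83 to 2.31), 2.73 CPM of Ccr1 (others 0.652 to 0.913) and 34.9 CPM of Cxcl14 (others 24.0 to 25.7). It is the library that the authors' day 10 table leaves out. In the same group, library 18 had 44.6 CPM of Cxcl12 (others 29.4 to 30.2) and library 19 had 1.42 CPM of Cxcl5 (others 0 to 0.0976). Day 10 control 3 had 1.45 CPM of Ccl12 (others 3.16 to 3.49). Day 5 exercise 2 had 35.1 CPM of Cxcl16 (others 17.6 to 19.7), and day 5 control 2 had 2.67 CPM of Cxcr2 (others 0.891 to 1.03).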

How the results depend on the processing

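Among 445 recomputed tests of 27 named gene results, 395 kept their direction and side of the threshold, 40 lost the call, 10 gained it and none changed sign. Some of the 27 were not called in the main fit, and staying uncalled counts as kept. The 395 therefore do not measure how stable the calls are. The count of chemokine genes past the threshold in exercise against control at day 10 was 0 with a replicate block, 0 when only the groups compared were fitted and 3 with DESeq2, against 1 in the edgeR fit. Over all genes those fits called 0 of 15096, 0 of 14363 and 218 of 16038, against 29 of 15096. Leaving out single libraries gave 0 to 1 chemokine genes, beside 0 to 133 of all genes. For the mean of both days the chemokine count was 1 without a filter on low counts and 2 with DESeq2, against 0, and 0 to 2 without single libraries. Over all genes it was 33 of 26253 and 323 of 13513, against 22 of 15096, and 0 to 100 without single libraries. Day 10 against day 5 gave 5 chemokine genes in control (4 to 6 without single libraries, 5 with the block, 7 with DESeq2) and 10 in exercise (7 to 10 without single libraries, 8 with the block, 7 with limma-voom, 13 with DESeq2). Over all genes the counts in the same order were 1858 in control (1301 to 1594, 1459, 2376) and 1520 in exercise (975 to 1839, 918, 1404, 2122). Exercise against control at day 5 and the difference between days gave 0 chemokine genes in every fit. Over all genes DESeq2 called 79 of 8944 and 13 of 10977 there, and the other fits 0 to 1. Chemokine genes whose groups did not overlap numbered 0 to 3 (exercise at day 5), 4 to 10 (exercise at day 10), 9 to 14 (days in control) and 8 to 13 (days in exercise) without single libraries. Leaving out a library makes non-overlap more frequent for any gene. The shares of all genes were not computed for these settings, so the higher counts are not a result about chemokine genes. In exercise between the days, limma-voom lost Ccl7, Cxcl10 and Cxcl13, the filter alternatives lost Cxcl10 and the fit without a filter also Cxcl13, and the fit of only the groups compared lost Ackr1. The replicate block lost Ccr1 and Cxcl13 in exercise and Cxcl12 at day 10, and the cause was not tested. The shared numbers did not pair the libraries. Genes with few reads, such as Ccr1 at day 10, are limited by depth.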
